A study of Mus musculus with 20 samples.

Results

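The 5 hippocampus libraries titled PS19/C3aR KO were set against the 5 titled WT, 10 of the 20 libraries in the series, to describe how far the double-mutant hippocampus still departed from WT. Members were chosen by sample title alone. All mice were 9 months old and male and are labelled C57BL/6J, and each library measured polyadenylated RNA from the hippocampus. WT libraries are labelled with neither alteration. PS19/C3aR KO libraries are labelled as combining the PS19 transgene, which drives a mutant human tau from the mouse prion protein promoter, with the C3aR KO label, which refers to the receptor for the complement fragment C3a encoded by C3ar1. They are called double-mutant libraries below, after that label. The 2 remaining groups, PS19 and C3aR KO, are each labelled with 1 of these alterations, with 5 libraries per group, and are used beside the main comparison. The transgene and the receptor label both differ between double-mutant and WT libraries, so within this comparison their parts cannot be told apart. Whether every library is its own animal is not stated in the labels, so p-values measure the spread between libraries, which may be technical.

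Tau aggregates in neurons of PS19 mice with age, and microglia and astrocytes around them take up reactive states. Complement tags material for removal: C1q starts the classical pathway, C3 is cleaved to C3a and C3b, and C3a acts through C3aR, which in brain is carried mainly by microglia. Reactive microglia raise a set of lysosomal and lipid-handling genes named disease-associated, astrocytes raise GFAP, and cells exposed to interferon raise antiviral genes. In bulk tissue, fewer cells of a type and less RNA per cell cannot be told apart.

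Gene counts were 33885800 to 46676700 per double-mutant library and 33914400 to 40852300 per WT library. Levels are given as CPM (counts scaled to a fixed library total) after TMM scaling, and they compare libraries, not genes. Markers of hippocampal neurons were present in all 10 libraries, with Prox1, the dentate granule cell factor, at 21.7 to 66.2 CPM in double-mutant and 45.4 to 70.3 CPM in WT libraries. Markers of neighbouring tissue varied within groups: Ttr, the choroid plexus transthyretin, ran from 15.1 to 3929 CPM in double-mutant and from 12.2 to 1899 CPM in WT libraries. The cortical layer score (mean log2 CPM of the list minus its WT mean) was 0.61 in WT library 2 and 0.60 and 0.62 in double-mutant libraries 2 and 3. The share of gene counts from Rn45s, the ribosomal RNA precursor, was 1.04 to 3.03% in double-mutant and 2.85 to 4.48% in WT libraries, with medians of 2.49 and 3.61%, so it was lower in the double mutant with some overlap.

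Of 16657 genes tested, 179 were called between double-mutant and WT libraries at an adjusted p below 0.05 (1.07%; edgeR quasi-likelihood test, Benjamini-Hochberg). Of these, 98 were higher (0.588%) and 81 lower (0.486%). The higher genes moved further: their median log2 fold change was 0.90, and 47 of them were at least 2-fold higher. The lower genes had a median of -0.29, and 67 of the 81 moved by less than 0.5 on the log2 scale. The median SE was 0.20 for the higher and 0.060 for the lower genes, at median levels of 3.30 and 6.53 log2 CPM. A gene with a larger SE needs a larger change to be called, so the sizes in the 2 directions were not selected alike. For 151 of the 179 called genes the 5 double-mutant and 5 WT libraries did not overlap, against 616 of all 16657 tested genes (3.70%). Calling selects for such genes, so this excess follows in part from the selection. The median log2 fold change of all tested genes was 0.01. In the same fit, PS19 minus WT called 1803 genes (10.8%; 7.5% higher, 3.32% lower) and C3aR KO minus WT called 10 (0.06%; 0.042% higher, 0.018% lower); both share the WT libraries with the main comparison. The count of 179 fell to 28 without double-mutant library 3, to 44 without library 1 and to 96 without library 4, and rose to 282 without library 2. It also fell to 65, 53, 38 and 42 without WT libraries 1, 3, 4 and 5. Adding the Rn45s share to the fit left 20 called genes, and fitting the 10 libraries alone left 43.

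**Figure D1:**
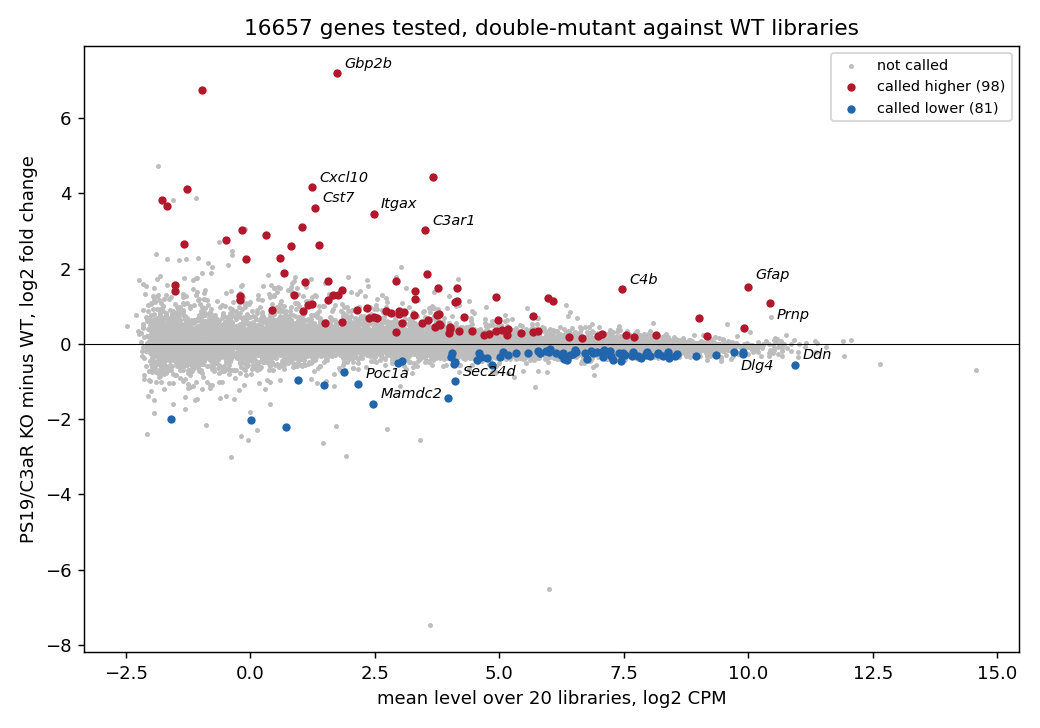
Each point is 1 of 16657 tested genes; the x axis is the mean log2 CPM over 20 libraries and the y axis the log2 fold change of PS19/C3aR KO minus WT. The 98 genes called higher spread up to several log2 units, while most of the 81 called lower lie close to the zero line.

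The 3 genes tied to the genotypes were examined first. Prnp, whose promoter drives the transgene, stood at 1918, 2026, 1831, 1880 and 1828 CPM in double-mutant libraries 1 to 5 and at 825 to 949 CPM in WT libraries. All 5 were above every WT library, with a log2 fold change of 1.09 ± 0.044 (SE; adjusted p = 7.24e-12, edgeR). Prnp did not overlap between the 10 libraries labelled PS19 and the other 10. Mapt, the mouse tau gene, was at 586 to 660 CPM against 492 to 562 CPM in WT, a log2 fold change of 0.22 ± 0.044 (adjusted p = 0.0285); it lost the call without double-mutant library 1 or 3 or WT library 3 or 5, with an adjusted p of up to 0.0835. Whether reads of the human transgene were counted in Mapt was not tested.

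C3ar1 went against the C3aR KO label. It was at 18.05, 18.72, 15.76, 14.96 and 17.49 CPM in double-mutant libraries 1 to 5 and at 1.73 to 2.42 CPM in WT, a log2 fold change of 3.03 ± 0.20 (adjusted p = 2.92e-08, edgeR). Libraries labelled C3aR KO without the transgene held 14.14 to 17.98 CPM, and PS19 libraries 4.98 to 13.7 CPM. Every library labelled C3aR KO was therefore above every library without that label. Gene-level counts do not show which exons the reads covered, so these values do not check the deletion, and directions below are those of the libraries labelled C3aR KO and PS19/C3aR KO.

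**Figure D2:**
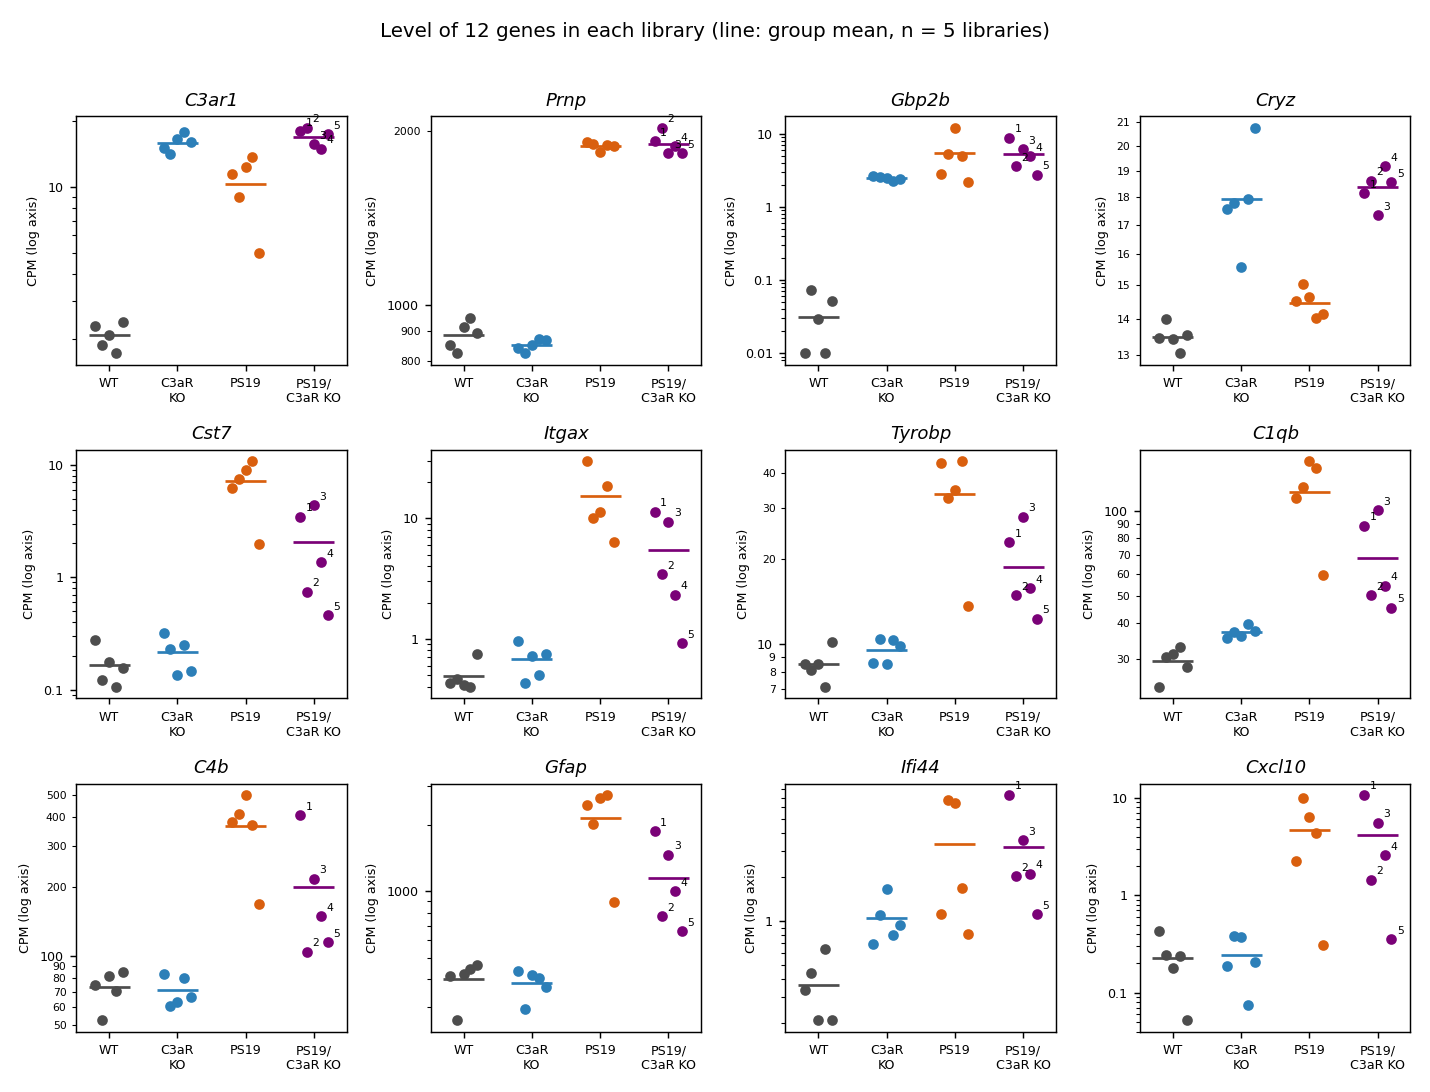
Level of 12 genes in each library, in CPM on a log axis, for the 4 genotypes; points are libraries, lines are group means (n = 5), double-mutant libraries carry their replicate number, and libraries at 0 are drawn at 0.01. Prnp splits the groups by the PS19 label, Cryz by the C3aR KO label, and Gbp2b sets WT apart from the other 15 libraries, while for Cst7, Itgax, C4b and Gfap double-mutant libraries 1 and 3 lie above 2 and 5.

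Among disease-associated microglia genes, 7 of 23 tested members rose and none fell, and the list's median log2 fold change was 0.94 against 0.01 over all tested genes. Cst7, a cystatin that inhibits lysosomal proteases, was at 3.45, 0.744, 4.37, 1.36 and 0.462 CPM in double-mutant libraries 1 to 5 and at 0.106 to 0.276 CPM in WT, with no overlap and a log2 fold change of 3.62 ± 0.62 (adjusted p = 0.0102, edgeR). Itgax, the CD11c integrin, was at 11.4, 3.43, 9.43, 2.33 and 0.923 CPM against 0.399 to 0.753 CPM, a log2 fold change of 3.46 ± 0.59 (adjusted p = 0.0102). In both genes the groups did not overlap, and double-mutant library 5 came nearest to WT. Clec7a, the fungal glucan receptor dectin-1, was at 0.380 to 2.88 CPM against 0.186 to 0.286 CPM, a log2 fold change of 2.63 ± 0.62 (adjusted p = 0.0462). Gpnmb, a lysosomal membrane glycoprotein, was at 3.74 to 14.6 CPM against 1.54 to 3.62 CPM, with library 4 highest. Cd52, Ccl6 and Ctsz, a surface glycopeptide, a chemokine and a lysosomal protease, completed the 7. Cst7 and Itgax kept their calls without any 1 of the 10 libraries, whereas Clec7a lost its call without any 1 WT library or double-mutant library 1, 3 or 4 (adjusted p up to 0.148). The count of 7 was 2 without WT library 4 or 5, 3 without WT library 1 or double-mutant library 1 or 3, 4 without WT library 3, 12 without double-mutant library 2 and 11 without double-mutant library 5. It was 14 by DESeq2 and 0 by limma-voom, with the 10 libraries alone or once the Rn45s share was in the fit. With the 10 libraries alone Cst7 and Itgax each had an adjusted p of 0.0594 (edgeR).

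General microglial and myeloid genes rose in part. Of 26 tested members 4 rose, namely Tyrobp, Cd53, Cd14 and Fcgr3, and the median was 0.75. Tyrobp, the signalling adaptor of TREM2, was at 22.8, 14.9, 28.1, 15.7 and 12.3 CPM in double-mutant libraries and 7.09 to 10.2 CPM in WT, a log2 fold change of 1.14 ± 0.25 (adjusted p = 0.0354, edgeR). Tyrobp lost its call without any 1 WT library or double-mutant library 1 or 3, with an adjusted p of up to 0.115. Cd14, a co-receptor for bacterial lipopolysaccharide, was at 2.66 to 6.38 CPM against 1.38 to 2.23 CPM and was called without any 1 library. Without WT library 1, 3, 4 or 5 or double-mutant library 1 or 3 the count of 4 was 1. It was 2 without WT library 2, 7 without double-mutant library 2 and 9 without double-mutant library 5. It was 0 with the Rn45s share in the fit, 1 with the 10 libraries alone or by limma-voom, and 13 by DESeq2. Of 16 homeostatic microglia genes 1 rose: Gpr34, a lysophospholipid receptor, at 10.7 to 14.2 CPM against 7.55 to 9.22 CPM (log2 fold change 0.54 ± 0.13, adjusted p = 0.0469). Gpr34 lost that call without any 1 WT library and without double-mutant library 1, 3 or 4, with an adjusted p of up to 0.145. The homeostatic median was 0.21, below that of the disease-associated list.

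In the complement pathway, leaving C3ar1 aside, 4 of 20 tested members rose and none fell, with a median of 0.54. C1qb, 1 of the chains of C1q, was at 88.6, 50.4, 100.4, 54.4 and 45.5 CPM in double-mutant libraries against 23.9 to 33.0 CPM in WT, a log2 fold change of 1.21 ± 0.22 (adjusted p = 0.0155, edgeR). C1qc moved by 1.13 ± 0.23. C4b, the C4 component cleaved by the C1 complex, was at 408.8, 104, 217, 149 and 115 CPM against 52.4 to 84.9 CPM, a log2 fold change of 1.44 ± 0.32 (adjusted p = 0.0354); its reads cannot be cleanly separated from those of the near-identical C4a. C5ar1, the C5a receptor, was at 0.672 to 1.75 CPM against 0.297 to 0.744 CPM, and its groups overlapped (log2 fold change 1.27 ± 0.30, adjusted p = 0.0462). The count of 4 was 0 without double-mutant library 1 or 3, 1 without WT library 1, 3, 4 or 5 and 2 without WT library 2. It was also 0 with the Rn45s share in the fit or the 10 libraries alone, 1 by limma-voom and 7 by DESeq2. C1qb lost its call without double-mutant library 1 or 3, with an adjusted p of up to 0.0567, and C4b lost its call without any 1 WT library or double-mutant library 1 or 3, with an adjusted p of up to 0.106. PS19 libraries held 59.1 to 149.6 CPM of C1qb, so double-mutant libraries 2, 4 and 5 lay below the PS19 range and libraries 1 and 3 inside it.

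Reactive astrocyte genes showed 6 of 20 tested members higher and none lower, with a median of 0.82. Gfap, the astrocyte intermediate filament, was at 1865, 771, 1463, 1004 and 661 CPM in double-mutant libraries 1 to 5 and at 261 to 464 CPM in WT. Every double-mutant library exceeded every WT library, with a log2 fold change of 1.52 ± 0.28 (adjusted p = 0.0173, edgeR). The range in PS19 libraries was 898 to 2729 CPM, so libraries 2 and 5 lay under all PS19 libraries. Aspg, a lysophospholipase and asparaginase, was at 6.98 to 31.0 CPM against 3.63 to 5.74 CPM (log2 fold change 1.86 ± 0.33, adjusted p = 0.0135). Ptx3, a soluble pattern recognition molecule, was at 0.733 to 2.26 CPM against 0.122 to 0.546 CPM. Fbln5, an elastic fibre protein, showed little spread within the double-mutant group at 11.3 to 12.8 CPM, against 5.97 to 8.16 CPM in WT. Osmr, the oncostatin M receptor chain, and S100a10, an annexin A2 partner, were the other two. Gfap lost its call without double-mutant library 1 or 3 (adjusted p up to 0.0612). The count of 6 was 1 without double-mutant library 1 or 3, 2 without WT library 3 or 4, 3 without WT library 1 or 5, and 9 without double-mutant library 2. It was 0 with the Rn45s share in the fit, 2 with the 10 libraries alone, 4 by limma-voom and 12 by DESeq2. None of 17 general astrocyte markers was called by edgeR, DESeq2 or limma-voom (2 at an unadjusted p below 0.05; median 0.13), and none of 20 JAK-STAT3 genes was called by edgeR or limma-voom, with 1 by DESeq2 and 5 at an unadjusted p below 0.05.

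Interferon response genes had the highest median of the lists described here, 1.24, yet 2 of 28 tested members passed the adjusted test. All 28 had a log2 fold change above 0 and 27 had an unadjusted p below 0.05, beside 15.2% of all tested genes; 15 were called by DESeq2 and none by limma-voom. Ifi44, an interferon-induced protein, was at 7.31, 2.02, 3.57, 2.10 and 1.11 CPM in double-mutant libraries and 0.208 to 0.638 CPM in WT (log2 fold change 3.11 ± 0.64, adjusted p = 0.0285, edgeR). Lgals3bp, a secreted galectin ligand, was at 21.2 to 64.2 CPM against 12.4 to 19.4 CPM (1.23 ± 0.29, adjusted p = 0.0436). Without double-mutant library 1 or 3 neither was called, with an adjusted p of up to 0.0822 for Ifi44 and 0.124 for Lgals3bp over all libraries left out, and 7 members were called without double-mutant library 2 and 6 without double-mutant library 5. Without WT library 1, 3, 4 or 5 none was called, and without double-mutant library 4 or WT library 2 the count was 1. The interferon score was 1.78, 0.42, 1.07, 0.75 and 0.30 in double-mutant libraries 1 to 5, all above the WT range of -0.19 to 0.18, and libraries 1 and 3 stood highest.

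Guanylate-binding proteins, interferon-induced GTPases that act against intracellular pathogens, had a median of 0.91 over 10 tested members, with 1 called. Gbp2b was near absent from WT, with 0 to 3 counts per library, and reached 101 to 317 counts in the double-mutant libraries, or 2.74 to 8.75 CPM. The other two genotypes held it as well: 89 to 114 counts in libraries labelled C3aR KO and 78 to 456 in PS19 libraries. Its adjusted p against WT was 3.97e-06 (edgeR), and its fitted fold change, which depends on the prior count at such low WT counts, is not given. Reads may be shared with the near-identical Gbp2, which could affect both counts and was not tested. Gbp3, Gbp7, Gbp2 and Gbp6 had log2 fold changes of 1.31, 0.88, 0.94 and 1.25 with adjusted p of 0.0555 to 0.0911.

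Cytokine and chemokine genes had a median of 0.99, with 4 of 23 tested members higher: Ccl3, Ccl4, Cxcl10 and Il1b. The median was 0.49 with the 10 libraries alone and 0.50 with a stricter filter on low counts, and the calls were 0 with the 10 libraries alone or the Rn45s share in the fit, 9 by DESeq2 and 1 by limma-voom. Cxcl10, an interferon-induced T cell attractant, was at 10.7, 1.44, 5.52, 2.58 and 0.353 CPM in double-mutant libraries, and library 5 lay inside the WT range of 0.052 to 0.429 CPM (log2 fold change 4.17 ± 0.88, adjusted p = 0.0309, edgeR). Ccl4 rested on 6 to 31 counts per double-mutant library against 0 to 3 in WT, and Ccl3 on 7 to 50 against 1 to 8. Il1b, the interleukin 1 beta gene, was at 0.190 to 0.773 CPM against 0.0890 to 0.186 CPM. The count of 4 was 0 without double-mutant library 3 or WT library 5, 1 without double-mutant library 1 or WT library 1 or 4, 2 without WT library 3, 7 without double-mutant library 2 and 6 without double-mutant library 5. No antigen presentation gene was called by edgeR or limma-voom: of 14 MHC class I genes 9 had an unadjusted p below 0.05 and 4 were called by DESeq2 (median 0.53), and of 9 class II genes 3 had an unadjusted p below 0.05 and none was called by DESeq2 (median 0.34). Without double-mutant library 1 these medians were 0.31 and 0.12, and without double-mutant libraries 2 and 5 in turn 4 and 3 class I genes were called. B2m, the MHC class I light chain, was at 70.2 to 110.5 CPM against 48.2 to 60.7 CPM with an adjusted p of 0.0508.

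The promoters of 4 genes are shown: Cxcl10, Gbp2b and Ifi44 are interferon-induced genes called higher in the double-mutant libraries, and C3ar1 is the gene of the receptor label. Each runs from 250 bases before to 50 after the listed start, from RefSeq on GRCm38.p6, 5′ to 3′ on the gene's strand. They lie at chr5:92348840-92349139 (minus strand) for Cxcl10, chr3:151749861-151750160 (minus strand) for Ifi44, chr3:142594597-142594896 (plus strand) for Gbp2b and chr6:122856108-122856407 (minus strand) for C3ar1. Capitals mark GAAA, any 2 bases, then GAAA again, the core repeat bound by interferon-stimulated transcription factors, searched on both strands (a match on the opposite strand reads TTTC, any 2 bases, TTTC).
Cxcl10 promoter: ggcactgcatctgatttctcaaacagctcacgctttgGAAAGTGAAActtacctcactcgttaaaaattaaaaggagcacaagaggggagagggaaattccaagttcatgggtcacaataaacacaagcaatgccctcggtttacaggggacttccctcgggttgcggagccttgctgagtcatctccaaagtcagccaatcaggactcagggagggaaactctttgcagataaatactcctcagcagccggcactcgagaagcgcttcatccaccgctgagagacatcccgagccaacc
Gbp2b promoter: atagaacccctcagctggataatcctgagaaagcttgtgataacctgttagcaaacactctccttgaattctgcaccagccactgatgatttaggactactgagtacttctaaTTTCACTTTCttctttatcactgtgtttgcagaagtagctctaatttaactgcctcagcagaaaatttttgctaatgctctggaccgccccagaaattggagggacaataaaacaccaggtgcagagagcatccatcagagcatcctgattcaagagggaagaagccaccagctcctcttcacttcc
Ifi44 promoter: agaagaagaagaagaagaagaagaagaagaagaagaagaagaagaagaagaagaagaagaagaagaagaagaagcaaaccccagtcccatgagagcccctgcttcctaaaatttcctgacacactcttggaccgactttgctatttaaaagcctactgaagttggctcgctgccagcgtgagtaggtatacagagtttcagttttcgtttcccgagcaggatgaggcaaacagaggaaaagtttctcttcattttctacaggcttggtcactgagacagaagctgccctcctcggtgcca
C3ar1 promoter: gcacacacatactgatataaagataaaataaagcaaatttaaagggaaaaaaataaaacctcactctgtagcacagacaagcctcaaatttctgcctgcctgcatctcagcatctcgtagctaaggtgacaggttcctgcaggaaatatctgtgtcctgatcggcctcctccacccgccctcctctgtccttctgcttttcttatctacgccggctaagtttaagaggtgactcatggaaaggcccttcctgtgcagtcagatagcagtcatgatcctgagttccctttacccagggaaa
The Cxcl10 and Gbp2b windows each held 1 match, the second on the opposite strand, and the other two held none. Of all 32851 promoter windows 1131 held the letters (3.44%). Among called genes with a window they occurred in 8 of 69 that were higher and 1 of 62 that were lower, beside 450 of 12420 tested genes with a window (3.62%). Of 18 tested interferon list members with a window 11 held them (61.1%), and neither of the 2 called did. A match is a description of letters, and an absent match says only that these letters are not in the window.

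Lysosomal genes leaned the same way at a small size. All 26 tested members had a log2 fold change above 0, with a median of 0.23, and 18 had an unadjusted p below 0.05, but Ctsd was the 1 that was called by edgeR; 13 were called by DESeq2, none by limma-voom and 5 by edgeR without double-mutant library 2. Ctsd, the aspartic protease cathepsin D, was at 680, 436, 675, 428 and 484 CPM against 306 to 360 CPM (log2 fold change 0.68 ± 0.16, adjusted p = 0.0455, edgeR), and it lost the call without any 1 WT library or double-mutant library 1 or 3 (adjusted p up to 0.147). Lamp2, a lysosomal membrane protein, had a log2 fold change of 0.38 ± 0.093 with an adjusted p of 0.0502. Lipid transport genes had a median of 0.05 with none of 16 called by edgeR or limma-voom (3 at an unadjusted p below 0.05, 1 by DESeq2), and cholesterol synthesis genes a median of -0.04 with none of 22 called by the 3 tools (1 at an unadjusted p below 0.05).

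Few members of the neuronal lists were called. Of 19 postsynaptic genes 1 fell, Dlg4, the scaffold PSD-95, and the median was -0.21, or -0.13 with the Rn45s share in the fit. Of the 19, 2 had a log2 fold change above 0 and 9 had an unadjusted p below 0.05, beside 15.2% of all tested genes. DESeq2 called 3 lower and limma-voom 1. With the 10 libraries alone or the Rn45s share in the fit the count was 0. Dlg4 was at 734, 823, 733, 775 and 820 CPM in double-mutant and 850 to 956 CPM in WT libraries, with no overlap (log2 fold change -0.21 ± 0.047, adjusted p = 0.0389, edgeR). The call was lost without WT library 1, 3, 4 or 5 or double-mutant library 1, 3 or 4, with an adjusted p of up to 0.131. Outside the lists, Ddn, the dendritic protein dendrin, was at 1174 to 1948 CPM against 1883 to 2738 CPM (-0.56 ± 0.13, adjusted p = 0.0382, edgeR). WT library 2 lay inside the double-mutant range, and Ddn lost the call without the same 7 libraries (adjusted p up to 0.117). Also outside the lists, but chosen after their values were seen, were Synpo, of the spine apparatus, Kif5c, a neuronal kinesin, and Smad3, a TGF-beta signal transducer. These fell by 0.31, 0.23 and 0.43 on the log2 scale and did not overlap with WT. Of 17 presynaptic genes none was called by edgeR or limma-voom, 2 were called lower by DESeq2 and 6 had an unadjusted p below 0.05 (median -0.08, and -0.14 without double-mutant library 2).

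All 14 dentate granule neuron markers had a log2 fold change below 0, with a median of -0.38, but none was called by edgeR or limma-voom; 5 had an unadjusted p below 0.05 and 1 was called by DESeq2. The median was -0.23 without double-mutant library 3 and -0.53 without library 4, where 2 members were called lower. Stxbp6, a SNARE-binding protein, was at 67.1, 86.9, 66.3, 107 and 88.5 CPM against 96.4 to 113 CPM (-0.36 ± 0.11, adjusted p = 0.104). Plk5, a polo-like kinase family member enriched in these cells, was at 8.57 to 24.8 CPM against 20.8 to 25.0 CPM. The dentate score was -0.42, -0.74, -1.18, 0.11 and -0.08 in double-mutant libraries 1 to 5 against -0.25 to 0.28 in WT. Libraries 4 and 5 were inside the WT range and library 3 lay lowest. Libraries 2 and 3, the 2 lowest, also had the highest cortical scores of the double-mutant group, 0.60 and 0.62, and library 3 the highest striatal score, 0.63. The part of these in the dentate values was not tested. CA1 and CA3 markers had medians of -0.17 and -0.18 with none called by the 3 tools (1 of 11 and 0 of 11 at an unadjusted p below 0.05). The CA3 median was -0.06 without double-mutant library 3 and -0.30 without library 5. The 16 interneuron markers had a median of 0.14 (0.08 without double-mutant library 3) with none called by the 3 tools (6 at an unadjusted p below 0.05).

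Other cell types gave no calls by edgeR. The median of the choroid plexus list was 0.57 by edgeR but -0.09 by limma-voom, and the median choroid score was -1.004 in double-mutant and 0.97 in WT libraries, so no direction is read from it. Markers of choroid plexus, ependyma, oligodendrocytes, their precursors, endothelium, mural cells and border-associated macrophages had none called by DESeq2 or limma-voom either, with 1 of 20 oligodendrocyte genes and 0 of the others at an unadjusted p below 0.05. Of 12 T and NK cell genes 4 passed the filter on low counts, and none of these was called by the 3 tools (3 at an unadjusted p below 0.05); the defining marker Cd3e was at 0.0240 to 0.193 CPM in double-mutant and 0 to 0.0531 CPM in WT libraries. Cd163, of border-associated macrophages, was at 1.18 to 2.27 CPM against 1.37 to 2.55 CPM. Hba-a1, of red blood cells, was at 0 in all 10 libraries. Of 20 stress response genes none was called by edgeR or limma-voom, with 1 by DESeq2 and 6 at an unadjusted p below 0.05.

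The double-mutant libraries differed among themselves on the glial lists. Scores of disease-associated microglia were 1.09, 0.45, 1.15, 0.68 and 0.33 in libraries 1 to 5, of general microglia 1.07, 0.33, 1.02, 0.41 and 0.21, and of reactive astrocytes 1.20, 0.30, 0.84, 0.79 and 0.42. Libraries 1 and 3 were the 2 highest on each, and libraries 2 and 5 the 2 lowest; on the homeostatic list libraries 4 and 5, at 0.08 and 0.05, were lowest. All 5 were above every WT library on these 3 scores, where WT libraries reached 0.05, 0.04 and 0.25. PS19 library 5 was low within its own group, with a disease-associated score of 0.80. Choroid plexus scores did not follow this order, at 2.28, -2.12, -1.71, -1.004 and 2.45.

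**Figure D3:**
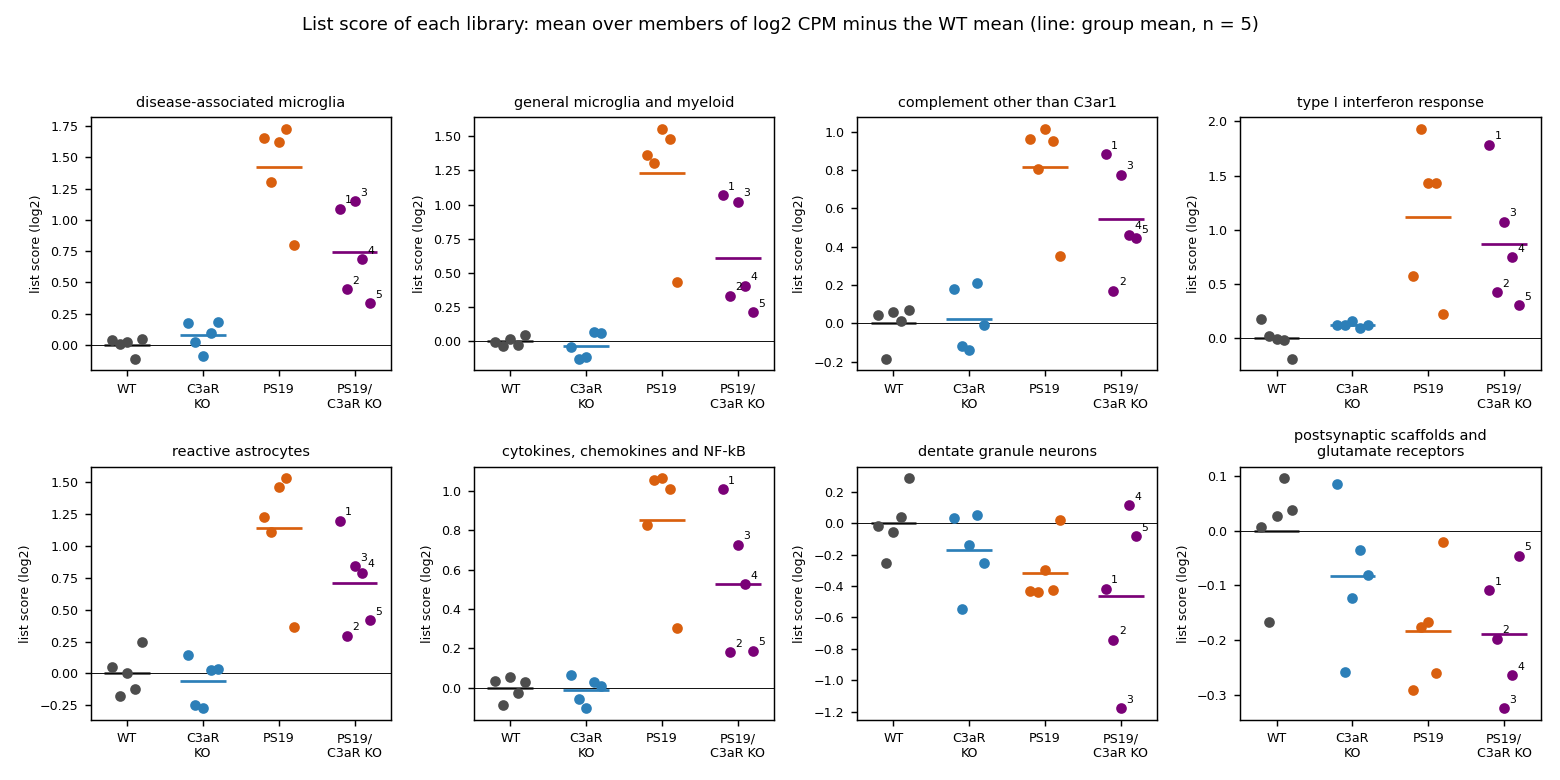
List score of each library, the mean over list members of log2 CPM minus the WT mean, for 8 lists and the 4 genotypes; points are libraries, lines group means (n = 5), and double-mutant libraries carry their replicate number. Libraries 1 and 3 are the highest double-mutant libraries on the microglial and interferon scores, and libraries 4 and 5 are inside the WT range on the dentate score.

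The direct comparison with PS19 libraries contrasts the C3aR KO label among libraries that are all labelled PS19. PS19/C3aR KO minus PS19 called 42 genes (0.252%), 12 higher (0.072%) and 30 lower (0.18%). In disease-associated microglia 2 of 23 members were lower, Clec7a by -2.53 ± 0.51 (adjusted p = 0.0402, edgeR) and Ccl6 by -1.57 ± 0.27 (adjusted p = 0.0275), and the list's median was -0.68. Both were called higher than WT, so the group levels of these 2 genes lay between those of PS19 and WT. Ccl6 ran from 0.912 to 2.70 CPM in double-mutant, 3.19 to 7.29 CPM in PS19 and 0.416 to 0.756 CPM in WT libraries. For Clec7a the double-mutant and PS19 libraries overlapped, at 14 to 100 and 43 to 631 counts per library. Cd74, the MHC class II invariant chain, was lower by -1.28 ± 0.25 (adjusted p = 0.0361), and against WT it had a log2 fold change of 0.57 ± 0.25 with an adjusted p of 0.28. For Gfap the difference from PS19 was -0.90 ± 0.28 (adjusted p = 0.141), for C4b -0.89 ± 0.31 (adjusted p = 0.185) and for Cst7 -1.78 ± 0.47 (adjusted p = 0.0932), none past the threshold. For the interferon list it was smaller, with a median of -0.27 and none of 28 called by edgeR, DESeq2 or limma-voom (0 at an unadjusted p below 0.05). Ifi44 differed from PS19 by -0.06 ± 0.54 and Cxcl10 by -0.18 ± 0.68. Of the 23 disease-associated members 15 had an unadjusted p below 0.05, beside 14.5% of all tested genes, and DESeq2 called 11 lower. Of 26 general microglial genes edgeR called none and DESeq2 12 lower, with 23 at an unadjusted p below 0.05 and a median of -0.61. Of 26 lysosomal genes edgeR called 1 lower and DESeq2 13, with 21 at an unadjusted p below 0.05 and a median of -0.26. DESeq2 called 443 of all tested genes. The count of 42 was 481 without PS19 library 5, 222 without double-mutant library 1, and 6 to 17 without PS19 library 1, 2 or 3 or double-mutant library 2, 3, 4 or 5.

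Against libraries labelled C3aR KO, which differ from the double mutant by the transgene, 1 gene was called (0.006%): Prnp, higher by 1.16 ± 0.044 (adjusted p = 2.75e-12, edgeR). At an unadjusted p below 0.05 there were 1617 genes (9.71%), DESeq2 called 158 and limma-voom 1. Against these libraries the log2 fold change was, for Gfap, 1.58 ± 0.28 (adjusted p = 0.0724), for Cst7 3.25 ± 0.59 (adjusted p = 0.0724) and for C4b 1.49 ± 0.32 (adjusted p = 0.0942). Without double-mutant library 2 the count was 68, without library 5 it was 24 and without library 4 it was 2.

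PS19 minus C3aR KO, which called 2510 genes (15.1%; 9.77% higher, 5.3% lower), shares no library with PS19/C3aR KO minus WT and also contrasts the transgene, but with the receptor label reversed. Of the 98 genes higher in double-mutant libraries, 52 were called higher there too (53.1% of the 98, 3.19% of the 1628 higher there), and of the 81 lower, 26 were called lower there (32.1% of the 81, 2.95% of 882). A further 18 were called in both with opposite signs, and 83 were not called in the second comparison. The 78 genes of like direction include Cst7, Itgax, Gfap, C4b, C1qb, Cxcl10, Prnp and Dlg4. Cst7 moved by 3.62 against WT and by 5.03 between PS19 and C3aR KO libraries, and Gfap by 1.52 and 2.47.

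**Figure D4:**
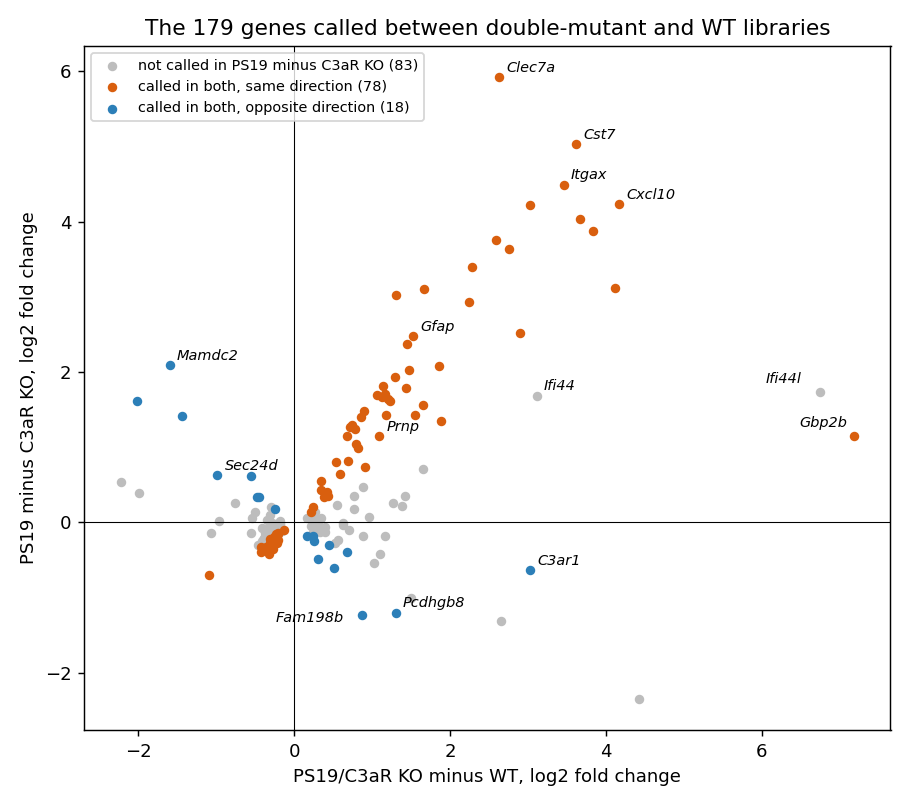
Log2 fold changes of the 179 called genes in PS19/C3aR KO minus WT (x axis) and in PS19 minus C3aR KO (y axis), which share no library; colours give the call in the second comparison. Microglial and astrocyte genes lie at the upper right, and C3ar1, Fam198b, Pcdhgb8, Mamdc2 and Sec24d lie where the signs differ.

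Of the 18 genes of opposite sign, C3ar1, Cryz, Coq2, Pcdhga4, Pcdhgb8, Rdh13 and Clcn4-2 split without overlap by the C3aR KO label. Cryz, a quinone reductase, was at 17.3 to 19.2 CPM in double-mutant and 15.6 to 20.8 CPM in C3aR KO libraries, against 13.05 to 13.99 CPM in WT and 14.02 to 15.05 CPM in PS19 libraries. It differed from WT by 0.44 ± 0.059 (adjusted p = 0.00121, edgeR) and from PS19 by 0.34 ± 0.059 (adjusted p = 0.0275). Kptn, an actin-associated protein, was lower at 13.7 to 15.2 CPM against 17.2 to 21.4 CPM in WT, with C3aR KO libraries at 13.4 to 17.3 CPM overlapping WT (-0.48 ± 0.069, adjusted p = 0.00366) and was lower than in PS19 by -0.42 ± 0.069 (adjusted p = 0.0214). Mamdc2 was at 1.58 to 3.39 CPM against 4.88 to 10.6 CPM in WT, and 5.18 to 13.7 CPM in PS19, while C3aR KO libraries, at 1.08 to 5.16 CPM, overlapped WT; its call against WT was lost in 9 of the 10 fits that left out a library, all except that without WT library 2, with an adjusted p of up to 0.11. Coq2, of coenzyme Q synthesis, Rdh13, a retinol dehydrogenase, and the protocadherins Pcdhga4 and Pcdhgb8, whose transcripts share exons within their cluster, had log2 fold changes of 0.31, -0.55, 0.51 and 1.31 against WT. Of these, Pcdhga4 was called without any 1 library. The other three each lost their call without WT library 3 or 5 or double-mutant library 3, among others, with adjusted p of up to 0.0988 for Coq2, 0.0835 for Rdh13 and 0.087 for Pcdhgb8.

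The groups that stood apart in each called gene were counted by ranges that did not overlap, a description made after the values were seen. Called genes were selected for a difference between double-mutant and WT libraries, so shares above those of all tested genes follow in part from that selection. A gene could show more than 1 of the patterns, as C1qb and C3ar1 did. In 33 of the 179 called genes the 10 libraries labelled PS19 were apart from the other 10 (18.4%; 87 of all tested genes, 0.522%). These include Prnp, Gfap, Cst7, Tyrobp, Ctsd and C4b above and Dlg4, Synpo, Kif5c, Smad3 and Ntng2, a netrin-G synaptic adhesion protein, below. In 7 called genes the libraries labelled C3aR KO were apart from the other 10 (3.91%; 12 of all tested, 0.072%). In 20 called genes WT was apart from the other 15 libraries (11.2%; 30 of all tested, 0.18%), among them Gbp2b, Ifi44, Tifa, an NF-kB adaptor, and Tubb6, a beta-tubulin. Tifa was at 6.11 to 10.2 CPM in WT and at 13.7 to 18.2 CPM in double-mutant libraries, and Tubb6 at 2.73 to 3.80 against 5.06 to 6.99 CPM. In the other two genotypes Tifa was at 12.9 to 20.3 CPM and Tubb6 at 4.56 to 6.34 CPM. Double-mutant libraries alone were apart from the other 15 in 2 called genes, Pgbd1 and Wdr83os.

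Called genes were unevenly placed along the genome. Chromosome 3 held 26 of the 179 (14.5% of calls; 3.24% of its 803 tested genes, beside 1.07% of all tested genes), 17 higher and 9 lower, and chromosome 12 was next at 1.82%. They were spread along chromosome 3 from Egfem1 at chr3:29081653-29691058 to Cryz at chr3:154596711-154623182, and included Gbp2b at chr3:142594816-142619179, Sec24d, a COPII coat protein, at chr3:123264801-123365641 and Tifa at chr3:127788875-127798394 (RefSeq, GRCm38.p6). For scale, chromosome 3 held 803 of the 16621 tested genes with a position. Of the 20 called genes in which WT was apart from all other libraries, 10 were on chromosome 3. Of the 10 genes called between C3aR KO and WT libraries 5 were on chromosome 3. The chromosome held 9.8 to 35% of calls under the alternatives, with 7 of 28 without double-mutant library 3 and 58 of 592 by DESeq2. Around C3ar1 on chromosome 6, 1 of 120 tested genes within 5 Mb was called, C3ar1 itself. Windows of 2 Mb starting at a called gene were ranked by their number of called genes. The fullest, on chromosome 11, held 6 called of 39 tested genes, among them the neighbouring chemokines Ccl6, Ccl3 and Ccl4. Another, on chromosome 9, held 5 of 53, among them Poc1a, a centriolar protein, Abhd14a and Col6a4, these 3 lower. Both windows were picked for their number of calls.

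**Figure D5:**
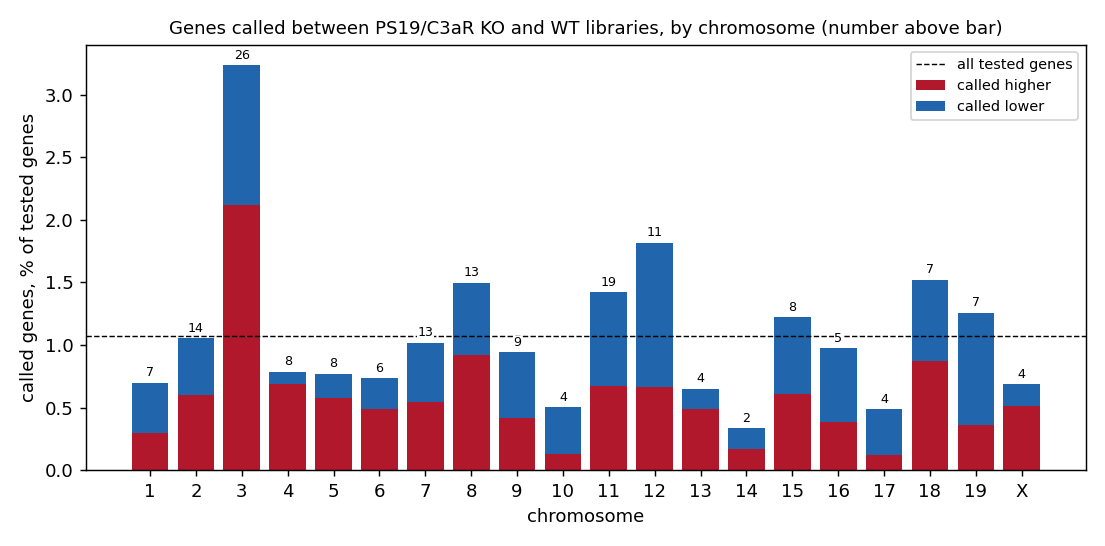
Share of tested genes called between PS19/C3aR KO and WT libraries on each chromosome, in percent, split into genes called higher and lower, with the number of called genes above each bar and the share over all tested genes as a dashed line. Chromosome 3 stands highest, at 3.24% and 26 genes.

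Few genes were called under every setting tried. Of the 179, 121 were called in at least 10 of 20 alternatives and 12 in all 20, of which 9 were higher and 3 lower and 4 lay on chromosome 3. The 12 were C3ar1, Prnp, Gbp2b, Cryz, Pcdhga4, Tifa, Tubb6, Zbtb42 and Zfp963 on the higher side and Kptn, Sec24d and Zfp652os on the lower side. None is a member of the microglial, complement, astrocyte or synaptic lists, but the complement list was defined without C3ar1, the C3a receptor gene. Cst7 and Itgax were each called in 17 of the 20, Gfap and C1qb in 16. A gene that a filter removed in a setting counted as not called there. Mmp12 was tested in 18 of the 20 and called in all 18, and Ccl4 was tested in 18 and called in 15. Among genes named by rule, 51 were called against WT, 12 of these also with the Rn45s share in the fit, 16 over the 10 libraries alone, 29 by limma-voom and 51 by DESeq2. With the Rn45s share in the fit, Cst7 had an adjusted p of 0.0723 and Gfap of 0.11. The fold change itself moved less: over the 20 alternatives Cst7 stayed between 3.10 and 3.87, Gfap between 1.28 and 1.67, and Itgax between 2.90 and 3.73 on the log2 scale.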

How the data were processed

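The files hold raw counts per gene, deposited by the authors, for 20 mouse hippocampus libraries. Per the labels' protocols, paired reads were aligned to mm10 and counted over exons with HTSeq. TopHat2 2.0.9 and DESeq2 are named in the submitters' processing notes. For the annotation release and strand setting the entry is "not given in the sources used here". Summary lines naming no gene were left out: reads in no gene made up 17.4 to 25.4% and ambiguous reads 1.39 to 1.64%. Gene counts ranged from 33885800 to 47828100 per library.

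From these counts, edgeR 4.0.16 (R 4.3.3) was fitted to all 20 libraries with genotype as the factor, TMM scaling, filterByExpr (minimum count 10, total 15; 16657 genes kept) and the quasi-likelihood test, at a Benjamini-Hochberg adjusted p of 0.05. The SE is the absolute log2 fold change over the square root of F. List scores are means of log2 CPM minus the WT mean, with a small fixed offset added to every CPM, which narrows differences in genes at low CPM. The choroid plexus covariate and the correlations of same-numbered libraries used log2 CPM with a prior count of 2. The code was tested on simulated data. Alternatives used DESeq2 1.42.0, limma 3.58.1 (voom), other scaling and filters, covariates, a replicate block, only the compared libraries, and each library left out.

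Named genes were the genotype genes, the 8 highest and 8 lowest called genes, up to 4 called members per list (otherwise the 2 of lowest p), and genes shared with the other comparisons. Some genes that meet the rule are not reported here. Genes named outside this rule were chosen after their values were seen. Members and lists were chosen with earlier results of these data known. Promoters and positions come from RefSeq on GRCm38.p6.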

Additional observations from a re-analysis of the deposited data

Results flagged for a closer look

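Within groups of 5, single libraries stood far from the other 4 by Dixon's criterion in 20 of 282 groups examined; chance gives about 1 in 20. In the double-mutant group these were Il1b in library 1 (0.773 CPM, others 0.190 to 0.350), Itpka, a dendritic spine kinase, in library 3 (141 CPM, lowest), Uqcrfs1, a respiratory chain subunit, in library 4 (93.4 CPM), and the striatal score of library 3 (0.63).

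WT library 2 was set apart most often: Gfap was lowest there (261 CPM, others 415 to 464), Prss35 lowest (4.78 CPM) and Ntng1 highest (92.3 CPM). Its list scores were -0.19 for complement, -0.32 for CA1, -0.40 for CA3, 0.19 for striatum and 0.61 for cortical layers.

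In the other WT libraries, Slc1a3 was 648 CPM in library 1, and in library 3 Fam198b was 7.77 CPM and the oligodendrocyte precursor score 0.20. In library 4 Vtn was 55.7 CPM, H2-Ob 0.531 CPM and the disease-associated microglia score -0.11. In library 5 Itgax was 0.753 CPM, and Mmp12 was at 0.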

How the results depend on the processing

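For PS19/C3aR KO against WT (179 calls), DESeq2 called 592, limma-voom 99 (40 higher and 59 lower, so the balance turned from 98 and 81), the choroid plexus covariate 380, the Rn45s covariate 20 and the 10 libraries alone 43. Leaving out 1 library gave 28 to 282. For PS19/C3aR KO against PS19 (42 calls) the values were 443 by DESeq2, 89 by limma-voom, 9 with the Rn45s covariate, 10 with the compared libraries alone and 6 to 481 without 1 library. Against C3aR KO (1 call), DESeq2 called 158, and leaving out 1 library gave 1 to 68. PS19 minus C3aR KO (2510 calls) ranged from 1707 to 2619 without 1 library. The replicate block gave 305, 212 and 22 calls for the first 3 comparisons. Same-numbered libraries did not all deviate together (correlations 0.25, 0.478, -0.144, -0.155 and 0.0574; libraries 1 and 2 correlated best with their own number), so the pairing by number is only a shared number. The causes of these shifts were not tested. Among list medians, choroid plexus (-0.09 by limma-voom), thalamus (0.06, or -0.33 without double-mutant library 4) and ependyma (-0.05, or 0.40 with the Rn45s covariate) changed sign. So did border-associated macrophages (-0.09, or 0.02 without WT library 5) and cholesterol synthesis (-0.04, or 0.006 with the Rn45s covariate). Oligodendrocyte precursors (0.03, or -0.002 without WT library 4) and the respiratory chain (-0.009, or 0.0008 without double-mutant library 1) also did. Ccl4 rests on 0 to 3 counts per WT library and Il1b on 3 to 7.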

Other observations

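WT library 2 held pituitary hormone transcripts: Gh at 1195 CPM, Prl at 234 CPM and Pomc at 47.7 CPM. In the other WT libraries Gh was at 0.0593 to 0.245 CPM, and in the double-mutant libraries at 0.0828 to 9.91 CPM. Neither Gh (log2 fold change -6.52, adjusted p = 0.136, edgeR) nor Prl (-7.46, adjusted p = 0.0852) was called against WT. Without WT library 2 the comparison called 213 genes in place of 179, and 133 genes were called in both fits. Of the 213, 90 were higher and 123 lower, so the balance turned from 98 higher and 81 lower. Gh, Prl and Pomc were chosen after their values were seen.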
